A study of Homo sapiens with 12 samples.

Results

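The cyclins and cyclin-dependent kinases that act at the passage from G1 into S phase were followed across all 12 libraries of a cell culture experiment on FLCN, the gene of Birt-Hogg-Dubé syndrome. They were 10 genes of the 58288 in the count table. The set was chosen by gene family, taking the D-type cyclins CCND1, CCND2 and CCND3, the E-type cyclins CCNE1 and CCNE2, the A-type cyclins CCNA1 and CCNA2, and the kinases CDK2, CDK4 and CDK6. The question put to it, whether other cyclins make up for CCND1, rests on a measured result, the low CCND1 level in the long-term knockdown libraries. CCND1 values that involve that group are therefore a description with no test. The lower CCND3 level in the same libraries was also known when the set was chosen, so that its long-term test is no independent evidence. The low count filter kept 9 of the 10 genes. CCND2 did not pass it and was not tested.

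D-type cyclins are made in response to growth signals and bind CDK4 or CDK6, and the complexes phosphorylate the retinoblastoma protein, which then releases E2F transcription factors. E2F factors switch on the E-type and A-type cyclin genes, whose products bind CDK2 and drive the start and the course of DNA replication. In the kidney tubule, D-type cyclins are best known for their part in regrowth after injury and in renal tumours, and the 3 D-type cyclins can replace one another in many cell types.

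The cells were HK2, a line of human kidney proximal tubule cells that was immortalised with papillomavirus genes, one of which blocks the retinoblastoma protein. They carried an shRNA against FLCN (FLCN knockdown) or a nontarget shRNA (genotype WT in the labels), and were harvested below 30 passages (short-term) or beyond 120 passages (long-term), giving 4 groups of 3 biological replicates. All groups grew in DMEM with serum, and all carried an shRNA, so that no parental cells without one were compared. Knockdown lines were stable clones, and neither the labels nor the methods say which clone each library came from. Clone and knockdown therefore cannot be told apart at either time. The passage limits are those of the labels, and the methods give a lower limit for the long-term cells, counted from clonal selection.

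Libraries held 5825779 to 8991051 counts. FLCN stood at 15.3 ± 2.25 CPM (read counts scaled to a common library size; SD, n = 3) in nontarget and 6.06 ± 0.469 CPM in knockdown cells of the short-term groups, and at 11.3 ± 1.23 and 6.99 ± 0.868 CPM in those of the long-term groups, with no overlap between knockdown and nontarget libraries at either time. Of 14 proximal tubule markers, 4 were tested and 4 (LRP2, SLC22A6, SLC22A8 and HNF4A) had no count in any library, against 5 of 6 epithelial and 4 of 4 mesenchymal markers tested, so that the transcripts that define the labelled cell type were in part absent. Markers of other tubule segments and of blood and vessel cells summed to at most 1.49 CPM in any group. Replicate 3 stood apart from replicates 1 and 2 of its group: pairs with replicate 3 had a chi-square per degree of freedom of 3.19 to 8.71, against 1.80 to 3.82 for pairs without it. Levels below are CPM with TMM scaling unless a value per exon length (RPKM) is named, and tests are quasi-likelihood tests in edgeR, adjusted over 13959 genes by the Benjamini-Hochberg method.

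After long-term FLCN knockdown CCND1 was low and none of the other G1/S cyclins was called higher in the main fit. CCND3, CCNE1 and CCNA1 fell, CCNE2 and CCNA2 did not pass the test, and CCND2 had no count. Among the kinases CDK6 rose, whereas CDK2 and CDK4 did not pass the test. After short-term knockdown CCND1 rose, and edgeR called no other member, whereas DESeq2 also called CDK6. The levels of all 10 genes by library show these patterns.

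Some markers of cell state differed between the same groups. The 4 mesenchymal markers summed to 2814 and 3790 CPM in the short-term nontarget and knockdown groups and to 2764 and 1499 CPM in the long-term ones, the 6 epithelial markers to 2404 and 3061 CPM and to 2924 and 2509 CPM, and the 14 proximal tubule markers to 324 and 408 CPM and to 420 and 372 CPM. After long-term knockdown 2 of 4 tested mesenchymal (FN1 and CDH2) and 2 of 5 tested epithelial markers (EPCAM and KRT7) were called lower. Of 4 tested proximal tubule markers 1 was called lower (PAX8) and 1 higher (GGT1). Of all tested genes 15.8% were called lower and 13.7% higher. FN1, which encodes fibronectin, had group means of 1627 CPM with the nontarget shRNA and 284 CPM with knockdown. VIM, also on the mesenchymal list, went the other way in these means, from 839 to 975 CPM with no call. COL1A1 stood at 18.7 and 18.2 CPM. After short-term knockdown GGT1, PAX8 and FN1 were called higher and CDH2 lower, where 5.62% of all tested genes were called higher and 4.71% lower. KRT19, an epithelial keratin, had group means of 32.8 and 32.6 CPM in the short-term nontarget and knockdown cells against 5.07 and 4.19 CPM in the long-term ones. The part of these shifts in the cyclin and kinase results was not tested.

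**Figure D1:**
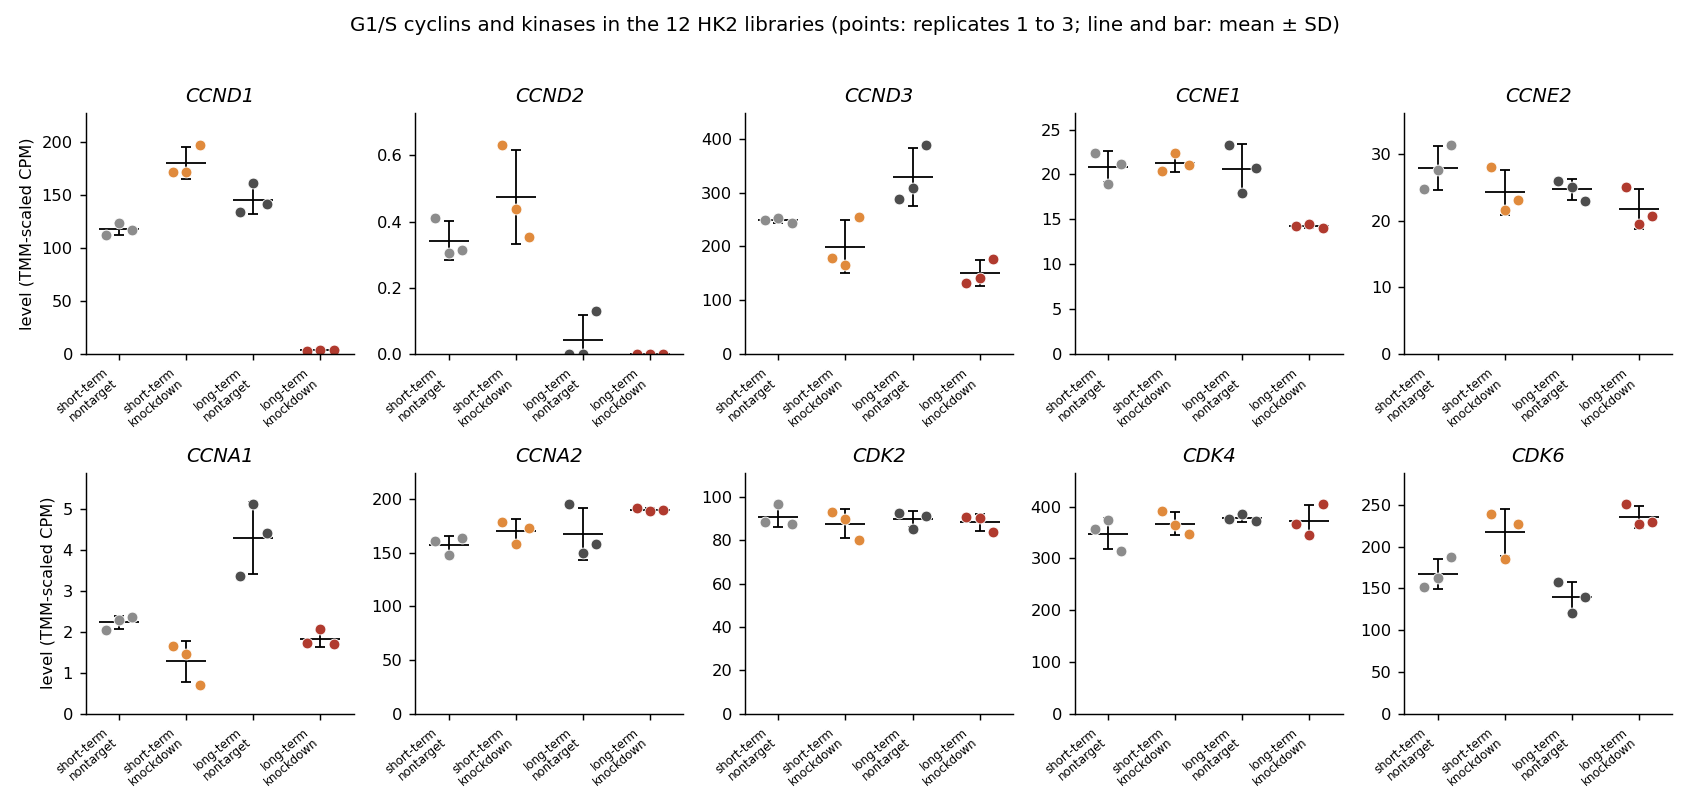
TMM-scaled CPM (vertical axes, linear, from 0, 1 scale per gene) of the 10 genes in the 4 groups, with 1 point per library, a horizontal line at the group mean and bars of 1 SD. CCND1 lies between 112 and 197 CPM in 9 libraries and between 3.24 and 3.67 CPM in the 3 long-term knockdown libraries, while CDK6 is highest and CCND3 and CCNE1 are lowest on average in that group.

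CCND1 (ENSG00000110092, chromosome 11, 69641087 to 69654474, plus strand, GRCh38) encodes cyclin D1. In short-term cells it gave 112, 124 and 117 CPM with the nontarget shRNA and 171, 171 and 197 CPM with FLCN knockdown. In long-term cells it gave 134, 161 and 141 CPM with the nontarget shRNA and 3.24, 3.67 and 3.56 CPM with FLCN knockdown. Each short-term knockdown library exceeded every nontarget library of either time, and the long-term knockdown libraries lay far below the rest. CCND1 rose 1.53-fold after short-term knockdown, in 3 of 3 libraries (log2 fold change 0.61 with an SE of 0.0995, edgeR adjusted p = 0.000618). After long-term knockdown the fitted log2 fold change was −5.28 (95% interval −5.57 to −4.99), a fitted level 38.8-fold lower than in long-term nontarget cells. The fit draws fold changes towards 0 by a prior count of 2, and the group mean itself was 97.6% lower. The group held 28, 25 and 21 CCND1 counts, so that the transcript was still detected in each library. In order of level, short-term knockdown (180 ± 15.0 CPM) came before long-term nontarget (145 ± 13.9 CPM), short-term nontarget (118 ± 5.78 CPM) and long-term knockdown (3.49 ± 0.225 CPM). The neighbours in this order did not overlap, although the 2 nontarget groups missed the threshold (log2 fold change 0.30, edgeR adjusted p = 0.0757).

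CCND3 (ENSG00000112576, chromosome 6, 41934933 to 42050357, minus strand) encodes cyclin D3 and was the only other D-type cyclin with more than a few counts. It gave 249, 252 and 244 CPM in short-term nontarget libraries and 178, 165 and 256 CPM after short-term knockdown. Replicate 3 of the knockdown group was above the whole nontarget group, and replicates 1 and 2 were below it. The log2 fold change was −0.32 (95% interval −0.65 to 0.01, edgeR adjusted p = 0.231). Without replicate 3 in all groups it was −0.55 and passed the threshold (edgeR adjusted p = 5.56e-05). In the 12 fits that left out 1 library it ran from −0.53 to −0.20. Of these, 1 passed, without short-term knockdown replicate 3 (edgeR adjusted p = 0.0162), and the highest adjusted p was 0.524, without short-term knockdown replicate 2. In long-term cells CCND3 gave 287, 309 and 389 CPM with the nontarget shRNA and 133, 140 and 177 CPM after FLCN knockdown, and the groups were widely separated. CCND3 fell by 1.13 (log2 scale, with an SE of 0.156 and an edgeR adjusted p = 3.57e-05), to 0.456 of the nontarget level, in 3 of 3 libraries, and the call held in each fit that left out 1 library.

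CCND2 (ENSG00000118971, chromosome 12, 4273772 to 4305350, plus strand), which encodes cyclin D2, was close to the limit of detection in every library. It gave 3, 2 and 2 counts in short-term nontarget cells, 5, 3 and 2 counts after short-term knockdown, 0, 0 and 1 count in long-term nontarget cells and 0 counts in all 3 long-term knockdown libraries. Its counts were lower in both long-term groups than in both short-term groups. The short-term knockdown group, with 10 counts, was 3.48-fold higher than the long-term knockdown group when the 0 counts of the latter were set to a floor of 3 counts over the group. This ratio leaves out the counting error of the 10 counts and is no lower bound. For the nontarget groups the ratio of short-term to long-term was 7.43, with an exact 95% interval of 0.954 to 335 that covers counting error only. The 0 counts of the long-term knockdown group allow a CCND2 level of up to 3 counts in its 21799310 counts.

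Per exon length, CCND3 was the more abundant D-type transcript in both nontarget groups, at 42.8 ± 0.747 RPKM against 24.4 ± 1.20 RPKM for CCND1 in short-term cells and at 56.7 ± 9.24 RPKM against 30.1 ± 2.87 RPKM in long-term cells. The summed D-type level of short-term cells was 67.2 ± 1.66 RPKM with the nontarget shRNA and 71.7 ± 11.5 RPKM with knockdown, and that of long-term cells was 86.8 ± 9.52 and 26.6 ± 4.12 RPKM. After long-term knockdown the sum was thus 30.7% of its own nontarget control and 39.6% of the short-term control. Between the long-term groups CCND1 differed by −29.4 ± 1.66 RPKM and CCND3 by −30.8 ± 5.84 RPKM (SE). These parts depend on the length used. With the longest transcript as length CCND1 went from 33.8 to 0.81 RPKM and CCND3 from 137 to 62.7 RPKM, so that CCND3 gave the larger part. CCND1 made up 36.2% of the D-type sum with the nontarget shRNA and 52.4% with knockdown in short-term cells, and 34.9% and 2.75% in long-term cells. With the longest transcript these shares were 20.8% and 33.8% in short-term cells and 19.9% and 1.29% in long-term cells. After short-term knockdown the CCND1 level differed by +12.9 ± 1.92 RPKM (SE) and the CCND3 level, which did not pass the test, by −8.45 ± 4.90 RPKM (SE), and the sum differed by 4.44 ± 6.73 RPKM (SE), less than the spread between replicates. The direction of the short-term sum turned with the longest transcript, at 131 RPKM with the nontarget shRNA and 125 RPKM with knockdown.

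**Figure D2:**
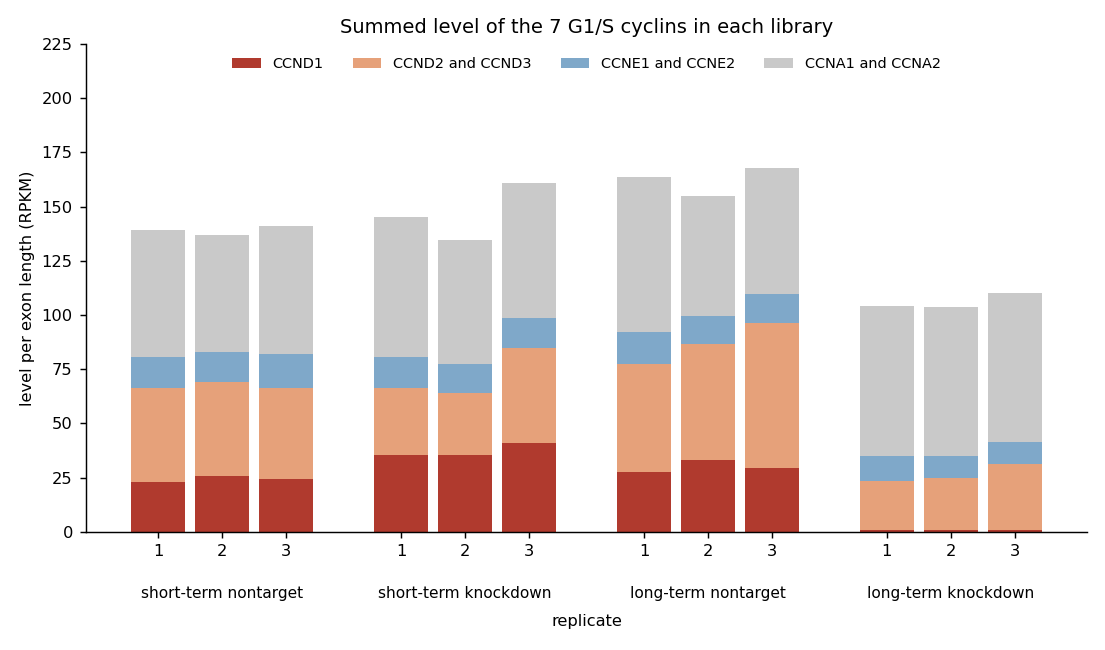
Level per exon length (RPKM, vertical axis from 0) of the 7 cyclins, stacked in each of the 12 libraries and grouped by shRNA and time in culture (horizontal axis, replicates 1 to 3). The total lies between 135 and 168 RPKM in 9 libraries and between 104 and 110.0 RPKM in the 3 long-term knockdown libraries, where the CCND1 segment is almost gone and the segment of CCND2 and CCND3 is smaller than in long-term nontarget cells.

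Among the E-type cyclins, which bind CDK2 at the start of S phase, CCNE1 (ENSG00000105173, chromosome 19, 29811898 to 29824308, plus strand) gave 23.3, 18.0 and 20.7 CPM in long-term nontarget cells and 14.2, 14.5 and 14.1 CPM after long-term knockdown. The 3 long-term knockdown libraries were the lowest of all 12. CCNE1 fell by 0.53 (log2 scale, with an SE of 0.136 and an edgeR adjusted p = 0.00679) in 3 of 3 libraries. Its short-term levels were 20.9 ± 1.74 CPM with the nontarget shRNA and 21.3 ± 1.02 CPM after knockdown (log2 fold change 0.03, 95% interval −0.26 to 0.31, edgeR adjusted p = 0.944). CCNE2 (ENSG00000175305, chromosome 8, 94879770 to 94896678, minus strand), the second E-type cyclin, ranged from 19.5 to 31.4 CPM with overlap between knockdown and nontarget libraries at both times. Its log2 fold change was −0.19 in short-term cells (edgeR adjusted p = 0.474) and −0.17 after long-term knockdown (95% interval −0.48 to 0.13, edgeR adjusted p = 0.404). The E-type sum of long-term cells was 13.7 ± 1.20 RPKM with the nontarget shRNA and 10.6 ± 0.635 RPKM with knockdown.

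CCNA2 (ENSG00000145386, chromosome 4, 121816444 to 121823933, minus strand) encodes cyclin A2, which is made in S and G2 phase in dividing cells. It gave 195, 150 and 158 CPM in long-term nontarget cells and 191, 189 and 190 CPM after long-term knockdown. The knockdown libraries were close together and lay below replicate 1 and above replicates 2 and 3 of the nontarget group. CCNA2 did not pass the test at either time, with a log2 fold change of 0.11 after short-term knockdown (95% interval −0.11 to 0.33, edgeR adjusted p = 0.583) and 0.18 after long-term knockdown (95% interval −0.04 to 0.40, edgeR adjusted p = 0.214). In 1 of 12 fits that left out 1 library, CCNA2 was called higher after long-term knockdown (edgeR adjusted p = 0.0282, without long-term nontarget replicate 1). CCNA2 was the cyclin with the largest level difference upwards in long-term knockdown, +7.99 ± 5.00 RPKM (SE), against −60.2 ± 5.99 RPKM (SE) for the D-type sum.

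CCNA1 (ENSG00000133101, chromosome 13, 36431520 to 36442882, plus strand), the A-type cyclin known mainly from the germ line, was a low transcript with 4 to 34 counts per library. It gave 3.35, 5.11 and 4.40 CPM in long-term nontarget cells and 1.73, 2.05 and 1.70 CPM after long-term knockdown, without overlap. CCNA1 fell by 1.11 (log2 scale, with an SE of 0.266 and an edgeR adjusted p = 0.00418) in 3 of 3 libraries. The long-term nontarget group was the highest of the 4, and the short-term values were 2.23 ± 0.159 CPM with the nontarget shRNA and 1.27 ± 0.497 CPM after knockdown (log2 fold change −0.65, edgeR adjusted p = 0.201). Summed over all 7 cyclins, the level of short-term cells was 139 ± 2.27 RPKM with the nontarget shRNA and 147 ± 13.2 RPKM with knockdown, and that of long-term cells was 162 ± 6.53 and 106 ± 3.61 RPKM. Without CCND1 the other 6 cyclins summed to 132 ± 9.05 and 105 ± 3.60 RPKM in the long-term groups, a difference of −27.0 ± 5.62 RPKM (SE). With the longest transcript as length these 6 summed to 217 and 145 RPKM, and the short-term sums over all 7 turned direction, at 207 and 204 RPKM. These sums weigh transcripts equally and say nothing of protein. The libraries are bulk RNA from unsynchronised cells, so that fewer cells in a phase of the cycle and less RNA per cell cannot be told apart.

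Among the kinases, CDK6 (ENSG00000105810, chromosome 7, 92604921 to 92836594, minus strand), a partner of D-type cyclins, gave 158, 121 and 140 CPM in long-term nontarget cells and 251, 227 and 230 CPM after long-term knockdown. The groups were far apart. CDK6 rose 1.69-fold (log2 fold change 0.76 with an SE of 0.120, edgeR adjusted p = 0.000122) in 3 of 3 libraries. In short-term cells it gave 152, 162 and 187 CPM with the nontarget shRNA and 239, 185 and 227 CPM after knockdown. Replicate 2 of the knockdown group overlapped the nontarget group, and the log2 fold change of 0.38 narrowly missed the threshold (95% interval 0.12 to 0.63, edgeR adjusted p = 0.0541), whereas DESeq2 called it (adjusted p = 0.0431). CDK4 (ENSG00000135446, chromosome 12, 57747727 to 57756013, minus strand), the other partner of D-type cyclins, had a group mean of 348 to 378 CPM, with log2 fold changes of 0.08 after short-term and −0.02 after long-term knockdown (95% intervals −0.12 to 0.28 and −0.22 to 0.18, edgeR adjusted p = 0.691 and 0.898). CDK2 (ENSG00000123374, chromosome 12, 55966769 to 55972784, plus strand), the partner of E-type and A-type cyclins, had group means of 87.5 to 90.9 CPM and log2 fold changes of −0.05 and −0.02 (95% intervals −0.26 to 0.15 and −0.23 to 0.18, edgeR adjusted p = 0.809 and 0.887).

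**Figure D3:**
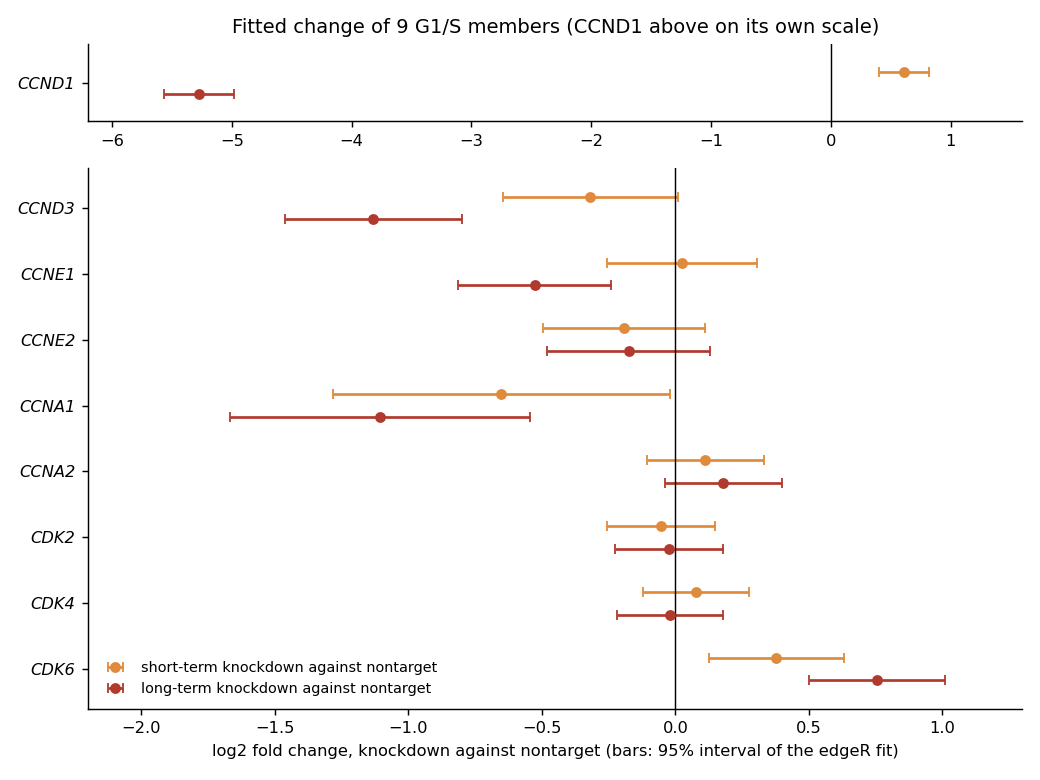
Fitted log2 fold change (horizontal axes) of knockdown against nontarget cells for the 9 tested genes, short-term (orange) and long-term (red), with bars for the 95% interval of the edgeR fit; CCND1 has an axis of its own. The long-term intervals of CCND3, CCNE1 and CCNA1 lie below 0 and that of CDK6 above 0, while those of CCNE2, CCNA2, CDK2 and CDK4 cross 0 at both times.

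Per exon length, CDK4 was the most abundant of the 10 transcripts at 110 to 119 RPKM in the group means, and CDK6 rose from 11.4 ± 1.52 RPKM to 19.2 ± 1.06 RPKM between the long-term groups. CDK6 thus made up 8.72% of the CDK4 and CDK6 sum in the long-term controls and 14.1% after knockdown, and the sum was 131 ± 1.74 and 137 ± 9.46 RPKM. The ratio of summed D-type cyclin to summed CDK4 and CDK6 level in short-term cells was 0.546 ± 0.0288 with the nontarget shRNA and 0.539 ± 0.108 with knockdown, and in long-term cells 0.665 ± 0.0810 and 0.194 ± 0.0205. The highest ratio among the 3 long-term knockdown libraries was 0.214 and the lowest among the other 9 was 0.464. With the longest transcript as the length, which is shorter for CCND3 (2394 against 5802 bases), the long-term ratios were 0.883 ± 0.127 and 0.317 ± 0.0328.

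In counts, 1 of 9 tested members was called higher after short-term knockdown (CCND1) and 0 lower, where 5.62% of all tested genes were called higher and 4.71% lower. After long-term knockdown, leaving out CCND1, 1 of 8 was called higher (CDK6) and 3 lower (CCND3, CCNE1 and CCNA1), where 13.7% of all tested genes were called higher and 15.8% lower. From the long-term count against its background nothing is read, since a result of that contrast posed the question. The median log2 fold change of the tested members was 0.03 after short-term and −0.10 after long-term knockdown, against 0.00013 and 0.00095 over all tested genes. Without replicate 3 in all groups, an alternative added after the data were seen, 3 members were called after short-term knockdown (CCND1 and CDK6 higher, CCND3 lower) and the same 4 members after long-term knockdown.

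Time in culture was compared within each shRNA. In nontarget cells 0 of 9 members were called by edgeR, where 3.17% of all tested genes were called higher and 4.38% lower in long-term cells. DESeq2 also called 0. CCND1, CCND3, CCNA1 and CDK6 had an unadjusted edgeR p below 0.05, with log2 differences of 0.30, 0.40, 0.86 and −0.26 between long-term and short-term cells. CCNA1 came nearest to the threshold (edgeR adjusted p = 0.0551). In knockdown cells, leaving out CCND1, 0 of 8 members were called higher and 1 lower in long-term cells, where 11.5% of all tested genes were called higher and 15.2% lower. The member was CCNE1, which fell by 0.57 (log2 scale, with an SE of 0.136 and an edgeR adjusted p = 0.00498). CCND3 had a log2 difference of −0.41 (edgeR adjusted p = 0.0636) and passed the threshold when replicate numbers were paired as a replicate block (edgeR adjusted p = 0.00404). CCND1 was lower by −5.58 on the log2 scale, as a description.

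Whether the knockdown effect itself differed between short-term and long-term cells was tested as an interaction. Of 8 members other than CCND1, 0 had a higher and 1 a lower effect in long-term cells, where 4.98% of all tested genes were called higher and 8.43% lower. The member was CCND3, whose effect was −0.81 lower on the log2 scale in long-term cells (95% interval −1.28 to −0.35, edgeR adjusted p = 0.0196). It missed the threshold without long-term knockdown replicate 1 (adjusted p = 0.0532), long-term knockdown replicate 2 (adjusted p = 0.0523) or long-term nontarget replicate 3 (adjusted p = 0.0504). CCNE1 (−0.55, edgeR adjusted p = 0.0637) and CDK6 (0.38, edgeR adjusted p = 0.162) missed the threshold, and both passed it with the replicate block (edgeR adjusted p = 0.0389 and 0.0429). The contrast includes the short-term nontarget libraries, whose replicate numbers pair with no other group, so the block has no basis for that part. The CCND1 effects, 0.61 and −5.28, lie −5.89 apart, as a description.

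Genes that act on the same complexes were counted in 6 lists of 93 genes in all, to be read beside the shares of all tested genes given above and their median near 0. Of the 7 CDK inhibitors, 2 were called higher (CDKN2C and CDKN1C) and 0 lower after short-term knockdown, and 3 higher and 3 lower after long-term knockdown (list median log2 fold change 0.11). The short-term CDKN2C call (0.50, edgeR adjusted p = 0.0419) was lost in 7 of 20 alternatives (highest adjusted p = 0.146, without short-term nontarget replicate 3), among them each that left out 1 short-term library alone. The short-term CDKN1C call was lost in 5 of 20 (highest adjusted p = 0.140), and 0 inhibitors were called without short-term nontarget replicate 1 or without short-term nontarget replicate 2. CDKN2C, an inhibitor of CDK4 and CDK6, rose by 1.37 on the log2 scale, from 30.8 ± 7.71 to 80.3 ± 9.78 CPM (edgeR adjusted p = 1.77e-06). CDKN2A and CDKN2B, of the same inhibitor family, rose by 0.70 and 0.60 (edgeR adjusted p = 0.00979 and 0.0145), and the CDKN2B call was lost without long-term nontarget replicate 2 or long-term knockdown replicate 2 or 3 (highest adjusted p = 0.0810). CDKN1A, the p53 target that inhibits CDK2, fell by 1.55 to 25.7 ± 4.60 CPM from 76.0 ± 24.0 CPM (edgeR adjusted p = 9.80e-06). CDKN2D fell by 0.70 (edgeR adjusted p = 0.00309). CDKN1C, with wide spread between replicates, fell by 2.17 from 111 ± 47.6 to 24.7 ± 8.76 CPM (edgeR adjusted p = 0.00226).

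Of 13 pocket proteins and E2F factors, 1 was called higher and 2 lower after short-term knockdown (one of these, E2F5, lost when any single short-term library was left out but not without replicate 3 in all groups), and 2 higher (RBL1 and E2F8) and 2 lower (E2F1 and E2F4) after long-term knockdown, with a list median of 0.05. E2F1, an activator of E-type cyclin genes, fell by 0.74 (edgeR adjusted p = 0.0164), and the call was lost without long-term knockdown replicate 1 or 2 or long-term nontarget replicate 3 (highest adjusted p = 0.0766). E2F8, a repressor, rose by 0.92 and 1.05 after short-term and long-term knockdown (edgeR adjusted p = 0.00422 and 0.000428). RBL1, the pocket protein p107, rose by 0.59 after long-term knockdown (edgeR adjusted p = 0.00133). Of 18 E2F-responsive replication genes, 0 were called higher and 1 lower (UHRF1) after short-term knockdown, and 2 higher (POLA1 and TK1) and 1 lower (UHRF1) after long-term knockdown, with a list median of 0.11. The short-term UHRF1 call was lost without replicate 1 of either short-term group or nontarget replicate 3 (highest adjusted p = 0.106). In the long-term comparison the POLA1 call was lost without long-term knockdown replicate 1 or 2 or nontarget replicate 2 (highest adjusted p = 0.0690), and the TK1 call without long-term nontarget replicate 1 or 2 or knockdown replicate 3 (highest adjusted p = 0.131). The other 15, among them genes of the MCM helicase, did not pass the test in the long-term comparison, although 6 of the 18 were called in place of 3 when replicate numbers were paired as a block.

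The list of 19 activators and turnover factors also held factors that restrain CDK2, among them WEE1 and CDK2AP1, so that its calls are not read as activation. Of the 19, 2 were called higher (SKP2 and CDK2AP1) and 0 lower after short-term and 2 higher and 3 lower after long-term knockdown. In the short-term comparison the CDK2AP1 call was lost when replicate 1 or 3 of either short-term group was left out alone (highest adjusted p = 0.0893), which left 1. SKP2, the F-box protein through which CDKN1B is degraded, rose by 0.54 and 0.51 (edgeR adjusted p = 0.00478 and 0.00203), and FBXW7, which marks cyclin E for degradation, rose by 0.73 after long-term knockdown (edgeR adjusted p = 0.00318). WEE1, the kinase that restrains CDK1 and CDK2, fell by 0.75 after long-term knockdown (edgeR adjusted p = 2.09e-05), and CABLES1 fell by 1.25 (edgeR adjusted p = 9.04e-05). Of the 19 other cyclins 18 were tested. Short-term knockdown gave 1 higher call (CCNG1) and 1 lower (CCNYL1). These became 0 without short-term nontarget replicate 3, 1 without short-term knockdown replicate 1 or 2, and 5 with the replicate block, for which the labels and the pairing check give no basis in the short-term groups. Long-term knockdown gave 5 higher calls and 1 lower. The lower one was CCNYL1, which fell by 2.00 from 72.5 ± 6.19 to 17.9 ± 1.96 CPM (edgeR adjusted p = 1.37e-09). The mitotic cyclin CCNB2 rose by 0.48 (edgeR adjusted p = 0.00244) and CCNG1, a p53 target, by 0.57 (edgeR adjusted p = 0.000666). Of 17 other CDKs 15 were tested. Of these, 1 was called higher after short-term knockdown and 3 after long-term knockdown (CDK13, CDK14 and CDK16), and 0 were lower. With the replicate block 5 other CDKs were called after long-term knockdown in place of 3. The CDK13 call was lost without long-term knockdown replicate 2 (adjusted p = 0.0526).

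The genes around CCND1 were also examined by position. Of 56 annotated genes within 1 Mb of CCND1, 14 were tested. After long-term knockdown 1 was called higher and 4 lower, with log2 fold changes from −3.75 to 0.61 and a median of −0.42, where 13.7% of all tested genes were called higher and 15.8% lower. Over the alternatives 0 to 1 were called higher and 3 to 7 lower, with 7 lower without long-term knockdown replicate 3, 6 with the replicate block and 3 without long-term knockdown replicate 2. After short-term knockdown 1 was called higher (MYEOV, 1.44, edgeR adjusted p = 0.0410) and 0 lower, against 5.62% and 4.71% of all tested genes, and the MYEOV call was lost in 8 of 19 alternatives (highest adjusted p = 0.163), among them each that left out 1 short-term library alone. The lowest was CPT1A, a carnitine acyltransferase of mitochondria, which went from 4.84 to 0.0978 CPM between the long-term groups (−3.75, edgeR adjusted p = 1.12e-06). CTTN, which encodes the actin-binding protein cortactin, fell by 1.04 (edgeR adjusted p = 1.00e-06), PPFIA1 by 0.70 (edgeR adjusted p = 0.000153) and SHANK2 by 0.86 (edgeR adjusted p = 0.0118, lost without long-term knockdown replicate 2 at 0.0542). TPCN2, a lysosomal ion channel, was called higher (0.61, edgeR adjusted p = 0.0413), but that call was lost in 12 of 19 alternatives, DESeq2 among them (highest adjusted p = 0.151, without long-term nontarget replicate 1). LTO1, which overlaps CCND1 on the opposite strand, had a log2 fold change of −0.39 (edgeR adjusted p = 0.0901), and FADD, 562 kb away, of −0.24 (edgeR adjusted p = 0.280). To be read against the same shares of all tested genes, 6 of 15 tested genes within 1 Mb of CDK6 were called higher and 1 lower after long-term knockdown (5 to 8 and 0 to 1 over the alternatives). Near CCND3 3 of 28 were called higher and 4 lower (1 to 4 and 3 to 6), and near CCNE1 2 of 5 higher and 0 lower (0 to 2 and 0 to 1).

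**Figure D4:**
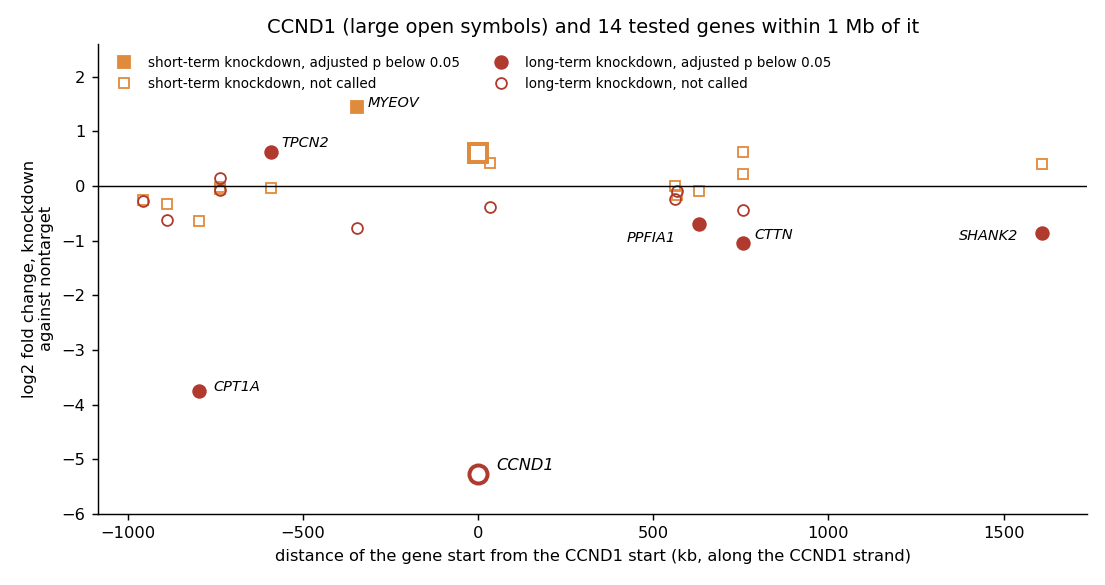
Log2 fold change of knockdown against nontarget cells (vertical axis) for 14 tested genes within 1 Mb of CCND1, by the distance of their start from the CCND1 start (horizontal axis, kb); squares are short-term, circles long-term, filled symbols have an adjusted p below 0.05, and the large open symbols are CCND1. Fitted long-term values of the neighbours run from −3.75 (CPT1A) to 0.61 (TPCN2), and that of CCND1 is −5.28. The prior count of the fit draws low-count genes such as CPT1A (group means of 4.84 and 0.0978 CPM) towards 0. Its value and that of CCND1 are therefore not ranked. SHANK2 starts 1611 kb away, and its other end lies within the window.

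Protein-coding genes that averaged 10 CPM or more, 9090 in all, were compared by profile. The profile over the 12 libraries nearest to that of CCND1, by the root mean square difference of centred log2 CPM, belonged to FAM110B (0.400), followed by THBS2 (0.558), BGN (0.585), FBLN2 (0.598) and GLDC (0.601). THBS2, BGN and FBLN2 encode extracellular matrix proteins. FAM110B stood at 15.4 ± 1.44 CPM in the short-term and 26.2 ± 4.01 CPM in the long-term controls, and at 0.190 ± 0.173 CPM after long-term knockdown. The profiles nearest to CDK6 were those of CYCS (0.115), LRPPRC (0.116), MBNL1 (0.117), GEMIN5 (0.122) and PURB (0.122). CYCS, which encodes cytochrome c, had 176.5 ± 41.6 CPM with the nontarget shRNA and 290.3 ± 16.5 CPM with knockdown in the long-term groups.

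The library kit does not mark strand, so that reads of genes on opposite strands cannot be told apart where exons overlap. Such overlaps are annotated between CCND1 and LTO1, CCNA2 and EXOSC9, CDK2 and PMEL, CDK4 and TSPAN31, CCNE2 and INTS8, CCND2 and CCND2-AS1, and between CCND3 or CDK6 and a noncoding gene. CCND2, CCND3 and CDK4 also have named pseudogenes that could share reads with them. CCNE1 and CCNA1 overlap no annotated gene.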

How the data were processed

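PolyA RNA was sequenced from 12 HK2 libraries, prepared with a TruSeq v2 kit. According to the submitters' processing notes and the methods, the authors trimmed reads with fastp, mapped them with STAR to GRCh38, counted reads per gene with featureCounts and deposited the raw counts, with replicates kept apart. Versions, annotation release and strand setting are not given in the sources used here. The authors also deposited counts divided by a DESeq2 size factor and rounded, treated here as a score, and columns of their own comparisons (fold changes and p-values). Neither was used.

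Of 58288 gene identifiers, 57980 matched GENCODE release 29 (version removed), which gave symbols, coordinates and exon lengths, and 308 did not. No value differed between the series table and the per-library files. Counts were fitted in R 4.3.3 with edgeR 4.0.16 (filterByExpr, TMM factors, robust glmQLFit and glmQLFTest, 1 term per group, all 12 libraries), and p-values were adjusted by Benjamini-Hochberg over 13959 genes, which held 99.8% of counts. Calls used an adjusted p below 0.05 with no fold limit. The biological coefficient of variation was 12.0%. RPKM is TMM-scaled CPM per kb of exon union. The scripts were tested on simulated data. Depth limits CCND2 and CCNA1 most, and p-values measure the spread between libraries of each group.

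Same-numbered libraries of the groups deviated together, with every correlation above 0.1, between long-term nontarget and long-term knockdown (0.285, 0.123 and 0.458), between short-term and long-term knockdown (0.223, 0.292 and 0.455) and between short-term knockdown and long-term nontarget, which were not compared (0.279, 0.150 and 0.467), so the numbers were taken to pair these groups, from the data and not from the labels. They did not between the short-term groups or the nontarget groups. Matching numbers did not always stand out in the pairs accepted. For short-term knockdown replicate 2 the highest correlation with another number of long-term nontarget was 0.193, against 0.150. For long-term nontarget replicate 1 with long-term knockdown it was 0.231, against 0.285. The main fit had 1 term per group and no pairing, which entered only as the replicate block.

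The genes, lists and tests were chosen with earlier results of these data known, among them the changes of CCND1 and the long-term fall of CCND3, so these are no independent evidence. Text names the 10 members, FLCN, at most 6 called genes per list by smallest adjusted p, tested neighbours of CCND1 and the 5 profiles most like each of CCND1 and CDK6. Alternatives were RLE factors, DESeq2 1.42.0, no filter, a mean of at least 10 CPM, the per-library files, the replicate block, only the groups compared, the longest transcript as length, leaving out each library, and leaving out replicate 3 of all groups, the last added after the data were seen, as were all alternatives for genes near the members.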

Additional observations from a re-analysis of the deposited data

Results flagged for a closer look

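Knockdown effects on 9 genes differed between long-term and short-term cells, each given here as the long-term minus the short-term log2 fold change. Among the cyclins followed, CCND1 differed by −5.89, with short-term and long-term libraries moving in opposite directions. That difference was not tested, since the low long-term level of CCND1 posed the question. CCND3 differed by −0.81 (edgeR interaction, adjusted p = 0.0196, lost in 3 of 12 fits that left out 1 library).

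Of the 93 listed genes, of which CCNI2, CDK3 and CDK15 were not tested, 7 passed the threshold of the edgeR interaction. Of all tested genes 4.98% were called higher and 8.43% lower, so the count is not read as a result about the lists. Among the CDK inhibitors, CDKN2C differed by 0.87 (adjusted p = 0.00980), CDKN1A by −1.53 (adjusted p = 0.000594) and CDKN1C by −3.77 (adjusted p = 0.000986). CDKN1C stood at 49.7 ± 16.0 CPM in short-term nontarget and 151 ± 91.7 CPM in short-term knockdown cells, and its short-term call was lost in 5 of 20 alternatives. RBL1 differed by 0.62 (adjusted p = 0.0237, lost in 6 of 19 alternatives), WEE1 by −0.72 (adjusted p = 0.00203), CABLES1 by −1.35 (adjusted p = 0.00196) and the cyclin gene CCNYL1 by −1.55 (adjusted p = 3.55e-06).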

How the results depend on the processing

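The long-term calls of CCND3, CCNE1, CCNA1 and CDK6 and the short-term call of CCND1 kept direction and side of the threshold in every alternative that tested them (CCNA1 was not tested at a mean of at least 10 CPM). CCNA2 gained a higher call after long-term knockdown without long-term nontarget replicate 1 (edgeR adjusted p = 0.0282). The count of members called after short-term knockdown was 2 with DESeq2, no filter or only the groups compared (CDK6 added), 3 with the replicate block (CCND3 at adjusted p = 0.0199 and CDK6 at 0.00924 added), 1 to 2 when 1 library was left out and 3 without replicate 3 in all groups. For time in culture in nontarget cells it was 1 without a filter, 2 with only the groups compared, 3 with the replicate block (CCND1, CCND3 and CCNA1), 0 to 2 when 1 library was left out and 1 without replicate 3. For time in culture in knockdown cells it was 3 without a filter, 2 with the replicate block, 1 to 2 when 1 library was left out and 2 without replicate 3. For the interaction it was 3 with the replicate block (CCNE1 and CDK6 added), 0 to 2 when 1 library was left out and 1 without replicate 3. The replicate block changed no member's call after long-term knockdown, but it raised the calls there from 4 to 6 pocket proteins and E2F factors, 3 to 6 E2F-responsive genes, 6 to 9 other cyclins and 3 to 5 other CDKs. Same numbers do not pair the short-term groups (correlations 0.0172, 0.111 and 0.054) or the nontarget groups (−0.0340, 0.0767 and 0.0250). Calls gained in these comparisons rest on a shared number only, and those gained for the interaction do so in part. The long-term D-type sum was 37.1% of the nontarget sum with the longest transcript as length. RLE factors moved the median of all genes by at most 0.0045 on the log2 scale.

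Directions turned only for members with no call and a log2 change near 0. CDK2 over time in knockdown culture was −0.0048 at a mean of at least 10 CPM. When 1 library was left out, it ran from −0.0490 to 0.0567 there, from −0.0991 to 0.00649 after short-term knockdown, from −0.0680 to 0.0144 after long-term knockdown, from −0.0460 to 0.0261 over time in nontarget cells and from −0.0298 to 0.0766 for the interaction. CDK4 ran from −0.0822 to 0.0200 after long-term knockdown and from −0.0420 to 0.0667 over time in knockdown cells. CCNE1 ran from −0.0377 to 0.0797 after short-term knockdown and from −0.108 to 0.0701 over time in nontarget cells. CCNA2 ran from −0.0335 to 0.160 over time in nontarget cells and from −0.0153 to 0.193 for the interaction, and CCNE2 from −0.108 to 0.141 for the interaction. Without replicate 3 in all groups, CDK2 was 0.0325 after long-term knockdown, CDK4 −0.0891 after long-term knockdown and −0.0835 over time in knockdown cells, and CCNE2 −0.113 for the interaction. The cause of these shifts was not tested.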
